A study of Mus musculus with 6 samples.

Results

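Hmgcs1, Idi1, Fdps, Fdft1, Sqle, Lss, Cyp51, and Dhcr7 encode enzymes of cholesterol synthesis, and their expression was described in single tumor cells of a mouse melanoma model. The genes were chosen by symbol, with earlier results of these data known, and each of the 8 symbols had 1 entry among the 25215 genes listed. The set was proposed under a name that also covers cholesterol uptake, but none of the 8 genes takes up cholesterol, and uptake genes are given separately as a list. All 8 genes passed the filter on low values (TPM above 0 in more than 5 cells) that left 11264 genes.

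Single-cell RNA sequencing was done on cells sorted as negative for CD45, a surface marker of leukocytes, from tumors of C57BL/6 mice injected under the skin with 50000 melanoma cells and harvested on day 15. The B16 tumors grew from the B16 line without treatment, and the B16PD1 tumors grew from the same line in mice given 200 µg of anti-PD1 antibody on days 5, 8, and 11. The R499 tumors grew, untreated, from the R499 line, which does not respond to immune checkpoint blockade. Its source was 1 B16 tumor that had come back in spite of radiation given together with anti-CTLA4. Each condition had 2 mice, and the tumor was taken as the replicate. A gene was counted as detected in a cell when its TPM (a share of the transcripts of the cell, scaled for transcript length) was above 0, and levels are the mean over the cells of a tumor of log2(TPM + 1).

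Mammalian cells make cholesterol from acetyl-CoA through mevalonate, isoprenoid diphosphates, squalene, and lanosterol. Hmgcs1 acts before the mevalonate step, Idi1 and Fdps act on isoprenoids, Fdft1 and Sqle make and oxidize squalene, Lss closes the sterol ring, and Cyp51 and Dhcr7 act on the sterols that follow. When sterols are low, the SREBP2 transcription factor, encoded by Srebf2, is released from the endoplasmic reticulum with its escort SCAP and activates these genes, whereas INSIG proteins hold it back. Proliferating tumor cells need cholesterol for their membranes.

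After the filters on cells, 91 and 86 cells remained in the 2 B16 tumors (B16007 and B16008), 86 and 88 in the B16PD1 tumors (B16PD1000 and B16PD1002), and 81 and 75 in the R499 tumors (R499015 and R499016). The median number of genes detected per cell was 3647, 3388.5, 3807.5, 3838.5, 3141, and 3682 in the same order, so that R499015 was the shallowest tumor by this measure. The depth in reads is unknown, because TPM holds no read counts. The cell names carry a number, and no single number occurred in more than 1 condition. What it marks is not stated, and its part in any difference between conditions cannot be told apart from the condition.

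The retained cells expressed genes of the melanocyte lineage. Of 15 melanocyte lineage genes, 14 were detected, Ednrb was listed at 0, and Tyrp1 was the most abundant with a mean of 4275 TPM. The summed level of this list was 18674 and 18439 TPM (B16), 15376 and 16043 (B16PD1), and 18975 and 18454 (R499). Markers of other cell types were rare. Of 16 immune markers, 12 were detected, with Cd8a, Nkg7, and Itgax among those at 0, and at least 1 was found in 57 of 507 cells, but 2 or more in only 6 cells. The summed immune level was uneven, at 288 and 19.3 TPM (B16), 35.9 and 230 (B16PD1), and 7.03 and 7.32 (R499), with Lyz2 the most abundant gene at a mean of 35.9 TPM. The part of these cells in the results below was not tested. Of 8 fibroblast markers 5 were detected, led by Dcn, with summed levels of at most 3.01 TPM in a tumor and Col1a1, Pdgfra, and Thy1 at 0. Of 6 endothelial markers 3 were detected, led by Vwf, with at most 2.30 TPM and Cdh5, Kdr, and Tek at 0. The 5 keratinocyte markers were all at 0, and 2 of 5 adipocyte markers were detected, led by Fabp4, in 3 cells, with Adipoq, Plin1, and Cfd at 0.

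All 8 genes were expressed in these melanoma cells, and 7 of them were detected in more than 75% of the cells. Fdps, which joins isoprenoid units into farnesyl diphosphate, the last precursor common to sterols and prenylated proteins, was found in 98.2% of 507 cells (95% Wilson interval 96.7 to 99.1). Lss, the lanosterol synthase, was found in 48.3% (44.0 to 52.7). Between these ends stood Sqle at 89.0% (85.9 to 91.4), Cyp51 at 87.6% (84.4 to 90.2), Idi1 at 83.8% (80.4 to 86.8), Fdft1 at 83.6% (80.2 to 86.6), Dhcr7 at 80.7% (77.0 to 83.9), and Hmgcs1 at 78.5% (74.7 to 81.9). The intervals cover counting error only. Gapdh, a glycolytic gene, was detected in 100% of the cells.

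The median cell had 7 of the 8 genes detected. All 8 were detected together in 160 cells (31.6%), 3 or fewer in 29 cells, and none in 2 cells. Detection followed the number of genes found in the cell. The cells with all 8 genes had a median of 4592 genes detected, against 1625 in the cells with 3 or fewer. Among cells above the median number of genes of their tumor, Lss was detected in 63.9%, against 32.9% of the other cells. The same split gave 92.1% against 65.1% for Hmgcs1 and 100% against 96.5% for Fdps.

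By level, Fdps stood far above the others. Its mean was 951 TPM, compared with 159 for Dhcr7, 118 for Cyp51, 110 for Idi1, 108 for Sqle, 106 for Fdft1, 70.9 for Hmgcs1, and 28.1 for Lss. On the log2 scale, averaged over 6 tumors, the order was Fdps (9.50), Sqle (5.79), Cyp51 (5.56), Dhcr7 (5.53), Fdft1 (5.32), Idi1 (5.27), Hmgcs1 (4.56), and Lss (2.18). Fdps was above Sqle in 6 of 6 tumors, by 3.71 ± 0.32 (SD). Idi1 was above Hmgcs1 in 6 of 6 tumors by 0.70 ± 0.24, and Hmgcs1 above Lss in 6 of 6 by 2.38 ± 0.27. Among the 5 genes in the middle each neighboring pair differed by less than 1 SD between tumors, as for Sqle and Cyp51 at 0.23 ± 0.48, although Sqle, the highest of them, was above Idi1, the lowest, in 6 of 6 tumors. Among the cells that had it, Lss was present at a median of 20.2 TPM (quartiles 8.96 and 40.8) and Fdps at 872 TPM (575 and 1232). The lower mean of Lss thus came with both fewer detecting cells and lower values in those cells.

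Together the 8 genes made up 0.165% of all TPM, and Fdps was the main part of it. The mean sum per cell was 1741 and 1808 TPM (B16), 1765 and 1445 (B16PD1), and 1447 and 1694 (R499). Both R499 tumors and B16PD1002 were below both B16 tumors, and B16PD1000 lay between these. For Dhcr7 the SD between cells was 3.14 on the log2 scale (median over 6 tumors) and that between tumor means 0.39, and for Fdps they were 1.73 and 0.28. A mean over many cells varies less than single cells do, so these SDs do not compare cells with tumors.

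**Figure D1:**
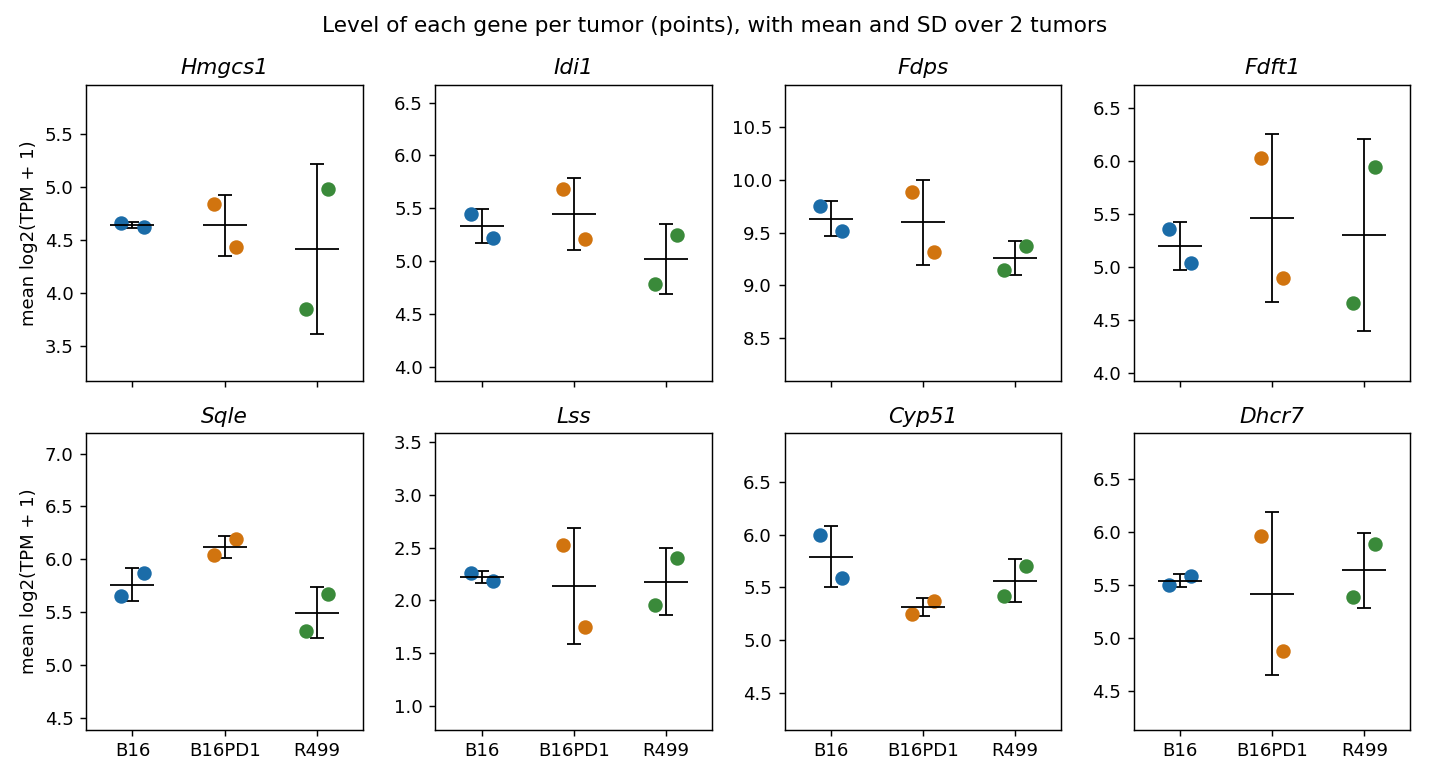
Mean log2(TPM + 1) of each of the 8 genes (y axis; each panel spans the same range around its own center) in the 6 tumors (points) of B16, B16PD1, and R499 (x axis); the long horizontal line is the mean and the bar the SD over 2 tumors. Fdft1 ranged from 4.66 to 6.03, whereas Sqle was at 6.04 and 6.19 in B16PD1, above the other 4 tumors, although as log2 of the mean TPM it was -0.0448 in B16PD1 minus B16.

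Differences between the 3 conditions were then compared gene by gene, to ask whether anti-PD1 treatment or the resistant line went with another level of the synthesis genes. None of the 8 genes passed an adjusted p of 0.05 in any of the 3 contrasts (limma, two-sided, adjusted over all 11264 genes). The contrasts share tumors, so they are not independent of each other. The background of calls was low as well. The share of all genes called was 0% for B16PD1 minus B16, 0.0621% (7 genes) for R499 minus B16, and 0.071% (8 genes) for R499 minus B16PD1. At an unadjusted p under 0.05 the shares were 4.69% (528 genes), 10.5% (1188 genes), and 10.2% (1149 genes), respectively, and none of the 8 genes was among them. With 2 tumors per condition the 95% intervals for the 8 genes reached as far as -1.30 (Sqle, R499 minus B16PD1) and 1.19 (Fdft1, B16PD1 minus B16). Differences within these intervals are not shown to be absent.

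Sqle, the squalene epoxidase that performs the first oxygen-dependent step, was at 5.65 and 5.87 (B16), 6.04 and 6.19 (B16PD1), and 5.33 and 5.67 (R499). Both B16PD1 tumors were above the other 4 tumors. The difference was 0.35 ± 0.32 (SE) for B16PD1 minus B16 (limma, adjusted p = 0.989), and -0.62 ± 0.32 for R499 minus B16PD1 (adjusted p = 0.525), the largest of the 24 differences by size. The latter was -0.35 in cells with more than 2000 genes and -0.25 with log2 of the mean TPM. The share of cells with Sqle was 85.7% and 88.4% (B16), 91.9% and 95.5% (B16PD1), and 85.2% and 86.7% (R499), so the B16PD1 tumors were highest by this measure too. As log2 of the mean TPM of a tumor, however, Sqle was -0.0448 in B16PD1 minus B16.

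Cyp51, the demethylase of lanosterol, was lowest in the B16PD1 tumors. Its level was 6.00 and 5.59 (B16), 5.25 and 5.38 (B16PD1), and 5.42 and 5.70 (R499). The B16PD1 tumors were below both other conditions, with a difference of -0.48 ± 0.33 from B16 (limma, adjusted p = 0.989) and of 0.25 ± 0.33 for R499 minus B16PD1 (adjusted p = 0.837). The size varied with the tumors and settings while the sign did not. B16PD1 minus B16 was -0.27 without B16007, -0.68 without B16008, -0.21 in cells with more than 2000 genes, and -0.70 with the number of genes detected as covariate. R499 minus B16PD1 was 0.10 without R499016, 0.39 without R499015, 0.0886 with all cells, and 0.84 with the covariate. Neither the difference of Sqle nor that of Cyp51 passed the test.

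Fdps was at 9.75 and 9.51 (B16), 9.88 and 9.31 (B16PD1), and 9.15 and 9.37 (R499). Both R499 tumors were below both B16 tumors, by -0.37 ± 0.26 (limma, adjusted p = 0.636), and the B16PD1 tumors overlapped both. With the number of genes detected as covariate the difference of R499 minus B16 was -0.0667. In mean TPM the levels were 1026 and 1074 (B16), 1050 and 860 (B16PD1), and 788 and 888 (R499).

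For the other 5 genes the conditions overlapped in all 3 contrasts. Hmgcs1, the cytosolic synthase that makes HMG-CoA, was at 4.66 and 4.62 (B16), 4.84 and 4.43 (B16PD1), and 3.85 and 4.98 (R499). The R499 tumors held both its lowest and its highest value. Idi1, which interconverts the isoprenoid building blocks, was at 5.45 and 5.22 (B16), 5.69 and 5.21 (B16PD1), and 4.79 and 5.25 (R499). Fdft1, the squalene synthase, was at 5.36 and 5.04 (B16), 6.03 and 4.90 (B16PD1), and 4.66 and 5.95 (R499). It varied most between tumors of the 8 genes, with an SD of 0.56 over the 6 tumors, and it varied within conditions. Lss was at 2.26 and 2.18 (B16), 2.53 and 1.75 (B16PD1), and 1.96 and 2.40 (R499). Dhcr7, which reduces 7-dehydrocholesterol to cholesterol, was at 5.50 and 5.59 (B16), 5.96 and 4.88 (B16PD1), and 5.39 and 5.89 (R499). For these 5 genes the differences between conditions lay between -0.43 (Idi1, R499 minus B16PD1) and 0.26 (Fdft1, B16PD1 minus B16), with adjusted p from 0.693 to 0.998 (limma). For Hmgcs1, Fdft1, Lss, and Dhcr7 the sign of the difference reversed in each contrast when 1 or another tumor was left out. That of Idi1 reversed in R499 minus B16PD1 with the number of genes detected as covariate (0.17) and with log2 of the mean TPM (0.24), and in B16PD1 minus B16 with these (-0.11 and -0.28), without B16PD1000 (-0.13), and without B16008 (-0.00127). In R499 minus B16 it reversed with the covariate (0.0602).

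Fdft1 showed an order of tumors within conditions that most of the set shared. B16PD1000 was above B16PD1002 for 6 of the 8 genes, all but Sqle and Cyp51, and R499016 was above R499015 for all 8. The share of all genes with these orders is not given here. Whether the 8 genes differ from other genes in this was therefore not tested. The shares of cells ran alike for Lss, at 59.3% in B16PD1000 against 42.0% in B16PD1002 and 38.3% in R499015 against 53.3% in R499016, with 48.4% and 48.8% in B16. R499015 was also the tumor with the fewest genes detected per cell, whereas B16PD1000 and B16PD1002 were nearly equal in this number. With the number of genes detected per tumor as a covariate, 6 of the 8 differences of R499 minus B16 were above 0, compared with 2 without it, as were 7 compared with 3 for R499 minus B16PD1 and 1 compared with 3 for B16PD1 minus B16. The direction of these differences was not the same with and without this covariate, and no gene passed the test (limma) in either fit.

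Counts of genes whose tumors did not overlap were near or below the background. For B16PD1 minus B16, 1 of 8 genes was higher in both B16PD1 tumors (Sqle), compared with 17.9% of all genes, and 1 was lower (Cyp51), compared with 15.4%. For R499 minus B16, none was higher, compared with 11.6%, and 1 was lower (Fdps), compared with 30.1%. For R499 minus B16PD1, 1 was higher (Cyp51), compared with 10.2%, and 1 was lower (Sqle), compared with 31.3%. The median difference of the 8 genes was -0.02, -0.23, and -0.19 in the 3 contrasts, and that of all genes tested was 0.01, -0.07, and -0.09. The sign of the median of the 8 genes was not stable. For R499 minus B16 it was 0.19 with the number of genes detected as covariate and 0.0483 without R499015. For R499 minus B16PD1 it was 0.51 with the covariate, 0.21 with log2 of the mean TPM, 0.30 without R499015, and 0.0846 without B16PD1000. For B16PD1 minus B16 it ranged from -0.31 without B16PD1000 to 0.29 without B16PD1002.

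**Figure D2:**
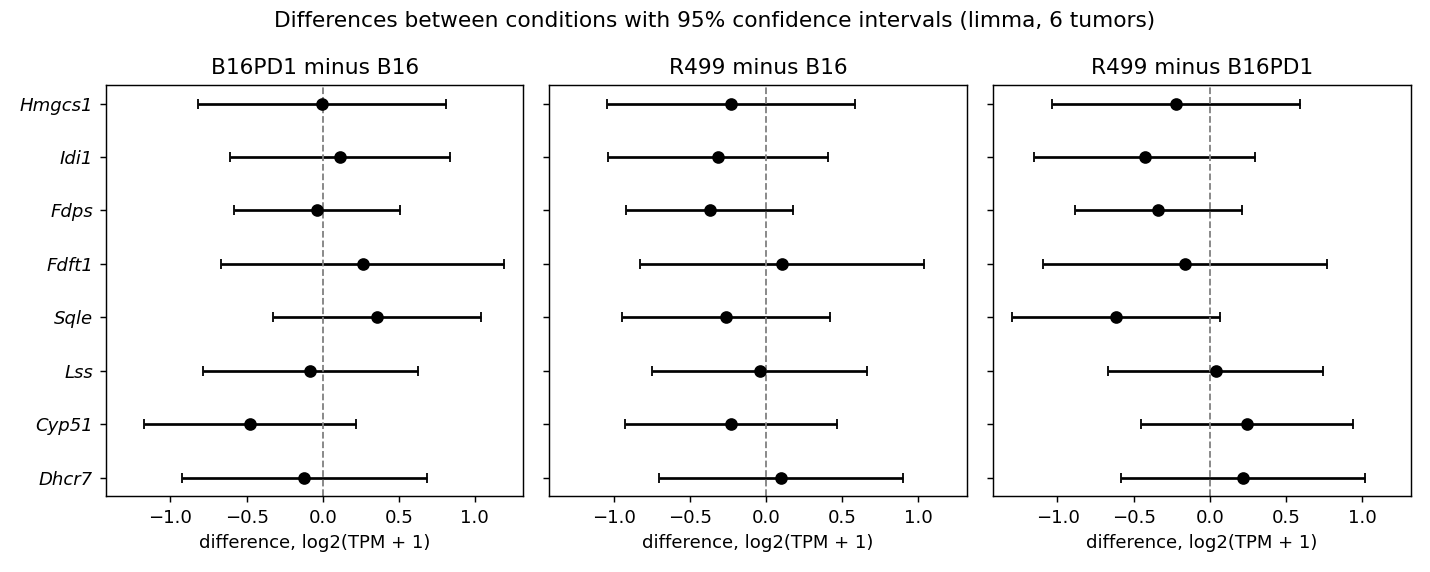
Difference in mean log2(TPM + 1) (x axis) for the 8 genes (y axis) in each contrast, with 95% confidence intervals from limma on 6 tumors; the dashed line marks 0. Each of the 24 intervals includes 0, and the point farthest from 0 is Sqle in R499 minus B16PD1 at -0.62.

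Although the conditions were not separated, the 8 genes varied together between cells of the same tumor. Within each tumor the levels of a pair of genes were ranked over cells, the number of genes detected per cell was regressed out of the ranks, and the resulting partial Spearman correlation was summarized as the median over the 6 tumors. All 28 pairs had a median above 0, from 0.0337 for Idi1 with Lss to 0.301 for Fdps with Fdft1, and 16 pairs were above 0 in all 6 tumors. The median over the 28 pairs was 0.173. Over 4267581 pairs of 2922 genes that were detected in at least as many cells as Lss, the median was 0.00470, the 95th percentile was 0.102, and 0.369% of pairs reached the median of the 28. Of these pairs 2.83% were above 0 in all 6 tumors. Cells of a tumor share its library preparation and are not replicates, so these values are a description. Because the 8 genes were chosen with earlier results of these data known, the comparison with other pairs is not an independent test.

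The strongest pairs joined enzymes at various distances in the pathway. Fdps with Fdft1, which acts on the product of Fdps, reached 0.453 in B16007, 0.299 in B16008, 0.151 in B16PD1000, 0.302 in B16PD1002, 0.324 in R499015, and 0.0924 in R499016. Hmgcs1 with Sqle had the next highest median, 0.285, but ranged from -0.117 in R499015 to 0.485 in B16007. Sqle with Cyp51 was steadier, with a median of 0.256 and a range from 0.189 to 0.345, and was above 0 in 6 of 6 tumors. Lss was the weakest partner, with medians from 0.0337 to 0.206. It was also the gene with the most undetected cells.

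By tumor, the median over the 28 pairs was 0.220 in B16007, 0.182 in B16008, 0.0952 in B16PD1000, 0.165 in B16PD1002, 0.134 in R499015, and 0.183 in R499016. The median was above 0 in each tumor, both B16PD1 values were below both B16 values, and the R499 values overlapped both. Whether treatment changed it was not tested. Among cells with both genes of a pair detected the median was 0.152, with 25 of 28 pairs above 0.

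**Figure D3:**
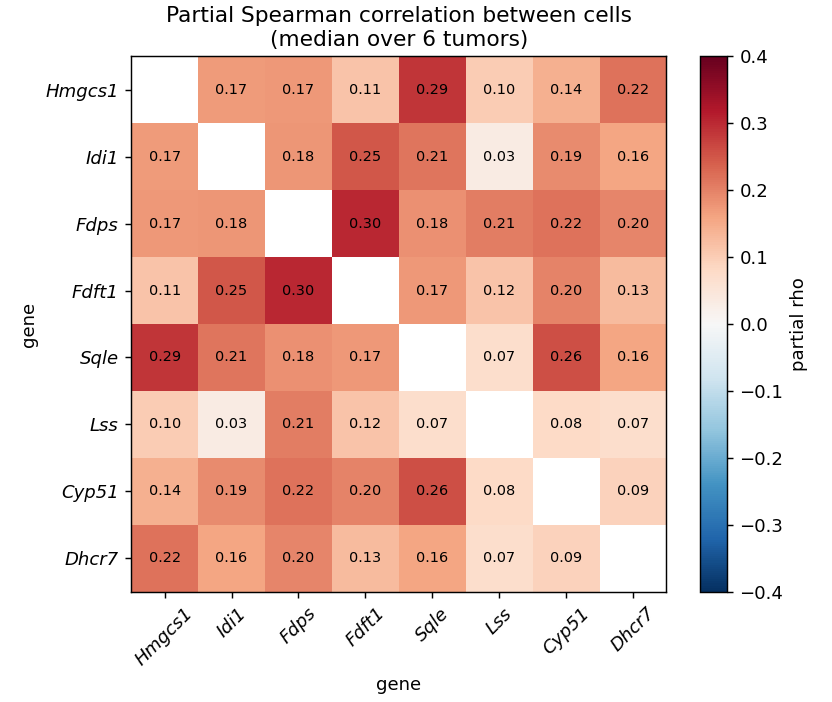
Partial Spearman correlation between cells for the 28 pairs of the 8 genes (rows and columns), as the median over 6 tumors with the number of genes detected per cell regressed out; color runs from -0.4 to 0.4. All pairs are above 0, Fdps with Fdft1 is highest at 0.30, and the row of Lss is palest.

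The genes that most resembled the set were largely other enzymes of the same pathway. Each of 6148 other genes detected in at least 20% of cells was correlated in the same way with the mean level of the 8 genes. Among the 10 highest were Msmo1 (0.344), Scd2 (0.318), Mvd (0.308), Nsdhl (0.300), Hsd17b7 (0.2995), Tuba1a (0.296), Scd1 (0.259), Sc5d (0.253), and Acat2 (0.246). Msmo1, Nsdhl, Hsd17b7, and Sc5d encode enzymes of the steps after lanosterol, Mvd an enzyme of the mevalonate steps, and Acat2 the thiolase that precedes Hmgcs1. Scd1 and Scd2 encode desaturases of fatty acids, and Tuba1a encodes an alpha-tubulin. Without the step that regressed out the number of genes detected, 5 of the 10 stayed among the 10 highest.

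Each of the 8 genes was set against the mean of the other 7 in the same way. Sqle was highest at 0.386, and Fdps, Hmgcs1, and Fdft1 stood near 0.35, followed by Idi1 (0.326), Cyp51 (0.285), Dhcr7 (0.249), and Lss (0.130). The first place depended on the tumors kept. Without B16PD1000 Sqle was at 0.345 and Hmgcs1 at 0.386. Sqle was also below Fdps without B16007 (0.345 against 0.349) and without R499016 (0.345 against 0.359). All 8 were above 0 in 6 of 6 tumors, compared with 4.68% of the 6148 other genes (288 genes) against the mean of the 8. This comparison is a description too, given how the 8 genes were chosen. The mean level of the 8 genes also went with the number of genes detected per cell, with a rank correlation from 0.397 in B16PD1002 to 0.585 in R499015. With the mitochondrial share of TPM its rank correlation was above 0 in each tumor, from 0.0387 in B16PD1002 to 0.293 in B16PD1000. That share was not regressed out.

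**Figure D4:**
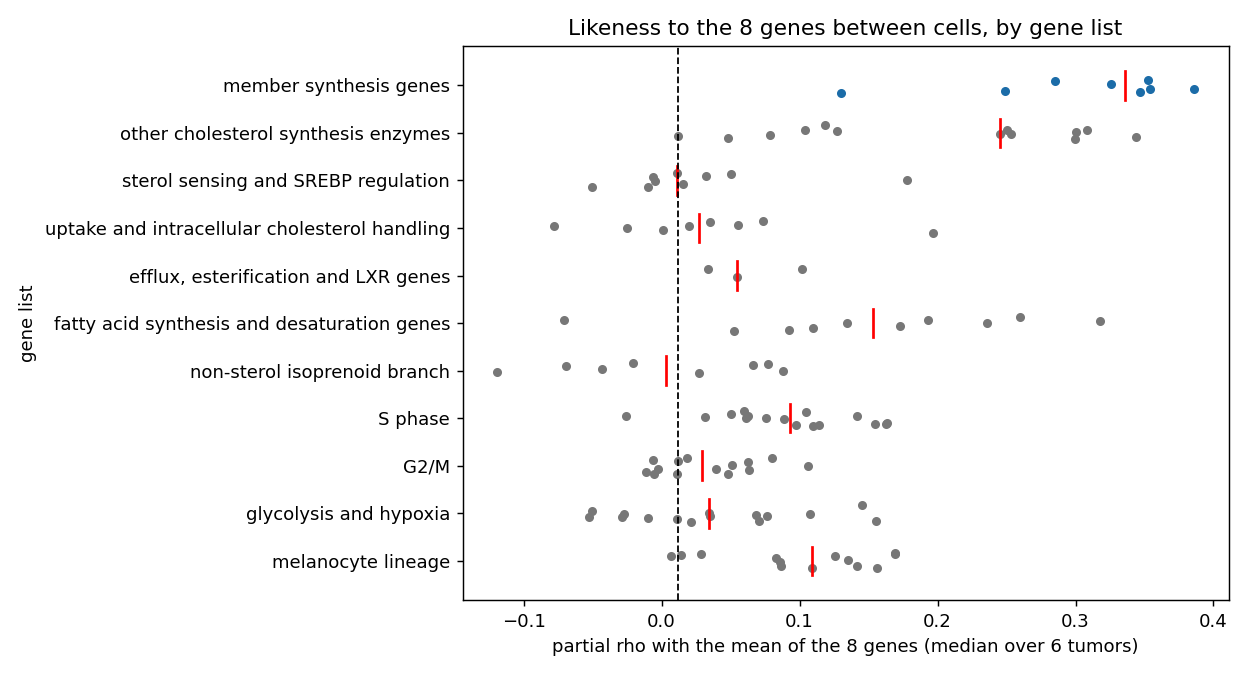
Partial Spearman correlation of each gene with the mean of the 8 genes between cells (x axis, median over 6 tumors), by gene list (y axis); blue points are the 8 genes, each against the mean of the other 7, red lines are list medians, and the dashed line is the median of 6148 other genes at 0.0117. Points of the other cholesterol synthesis enzymes reach 0.344, and most regulators and uptake genes lie near the dashed line.

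The rest of the synthesis pathway was present alongside the set. Of 15 other enzymes of cholesterol synthesis, 14 were tested and Idi2 was listed at 0. Their median correlation with the mean of the 8 genes was 0.246 (13 genes ranked), compared with 0.0117 for all ranked genes. Msmo1, the methylsterol oxidase, was the most abundant at a mean of 305 TPM in 91.3% of cells, with levels of 7.09 and 7.30 (B16), 7.73 and 7.02 (B16PD1), and 6.97 and 6.78 (R499). Both R499 tumors were below the other 4, by -0.50 ± 0.32 for R499 minus B16PD1 (limma, adjusted p = 0.611). None of the 14 passed the adjusted test (limma) in any contrast. Those with an unadjusted p under 0.05 were 1 of 14 in B16PD1 minus B16 (Lbr, 0.89 ± 0.32, adjusted p = 0.989), compared with 4.69% of all genes, and 1 of 14 in R499 minus B16PD1 (Sc5d, -0.78 ± 0.34, adjusted p = 0.457), compared with 10.2%.

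The regulators of the pathway followed the set less closely. Of 13 genes of sterol sensing and SREBP regulation, none passed the adjusted test (limma), 1 had an unadjusted p under 0.05, in B16PD1 minus B16 (compared with 4.69% of all genes), and 9 could be ranked, with a median correlation of 0.0114. The exception was Insig1, itself a target of SREBP2, at 0.178 and above 0 in 6 of 6 tumors. It was detected in 83.0% of cells, with levels of 5.60 and 4.97 (B16), 5.11 and 5.62 (B16PD1), and 4.15 and 5.18 (R499). Srebf2 was found in 58.6% of cells and its correlation with the set was above 0 in 4 of 6 tumors, but its mRNA level does not measure the released, active protein. Insig2, at 209 TPM the most abundant gene of the list, correlated at -0.0504.

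Few of the listed uptake genes were abundant. The list had a median correlation with the mean of the 8 synthesis genes of 0.0272 over 8 ranked genes, with Stard3 lowest at -0.0780. Scarb1, the scavenger receptor that binds HDL, was highest. It was found in 76.7% at 118 TPM and correlated with the 8 genes at 0.197, above 0 in 6 of 6 tumors. Npc2, which carries cholesterol out of lysosomes, was the most abundant of the 16 uptake and handling genes at 128 TPM but correlated at 0.0553. Of the 15 tested, none passed the adjusted test (limma), and the number with an unadjusted p under 0.05 was 0 of 15 for B16PD1 minus B16 (compared with 4.69% of all genes) and 2 of 15 for each of the contrasts with R499 (compared with 10.5% and 10.2%). Lipa, the lysosomal acid lipase that frees cholesterol from its esters, was at 4.31 and 3.90 (B16), 3.87 and 3.76 (B16PD1), and 3.30 and 3.12 (R499). Both R499 tumors were below the other 4, and the difference from B16 was -0.89 ± 0.33 (limma, adjusted p = 0.380).

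Of 14 genes of efflux and storage, 4 were tested and none passed the adjusted test (limma), with 2 of 4 at an unadjusted p under 0.05 in each of the contrasts with R499, compared with 10.5% of all genes in R499 minus B16 and 10.2% in R499 minus B16PD1. The sterol transporters were nearly absent, with Abca1 in 1.78% of cells and Abcg1 in 0.197%. Apoe, which encodes a lipoprotein component that accepts exported cholesterol, was at 8.08 and 7.38 (B16), 7.67 and 7.34 (B16PD1), and 8.96 and 8.92 (R499). Both R499 tumors were above the other 4, by 1.21 ± 0.30 over B16 (limma, adjusted p = 0.218) and 1.44 ± 0.30 over B16PD1 (adjusted p = 0.124). Soat1, which esterifies cholesterol for storage, was at 6.70 and 6.18 (B16), 6.36 and 6.50 (B16PD1), and 5.81 and 5.52 (R499), a difference of -0.78 ± 0.33 from B16 (adjusted p = 0.413).

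Of the remaining lists, genes of fatty acid synthesis and desaturation came closest to the set between cells, with a median correlation of 0.154 over 10 ranked genes. Melanocyte lineage genes had a median of 0.109 and S phase genes 0.0930, compared with 0.0290 for G2/M, 0.0341 for glycolysis and hypoxia, 0.0547 for the 3 ranked efflux and storage genes, and 0.00302 for the non-sterol isoprenoid branch, which draws on the products of Idi1 and Fdps. No gene of these lists passed the adjusted test (limma) in any contrast. At an unadjusted p under 0.05 the number in the 3 contrasts, in the order used above, was 1, 2, and 1 of 14 fatty acid genes, 2, 3, and 6 of 16 S phase genes, and 2, 1, and 1 of 16 G2/M genes. It was 1, 2, and 3 of 11 genes of the isoprenoid branch, 0, 2, and 1 of 16 for glycolysis and hypoxia, and 2, 2, and 2 of 14 melanocyte genes, compared with 4.69%, 10.5%, and 10.2% of all genes. The largest differences on any list were Tyms in B16PD1 minus B16 (1.34 ± 0.42, limma, adjusted p = 0.989), Apoe in R499 minus B16, and Rabggtb in R499 minus B16PD1 (-1.73 ± 0.37, adjusted p = 0.145).

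The 8 genes lie on 7 chromosomes. In the GENCODE M21 annotation of GRCm38 all are protein coding: Fdps at chr3:89093588-89101959, Cyp51 at chr5:4081145-4104746, and Fdft1 at chr14:63145150-63179578 on the minus strand, and Dhcr7 at chr7:143823145-143848410, Lss at chr10:76531588-76557138, Idi1 at chr13:8885501-8892451, Hmgcs1 at chr13:119690379-119708260, and Sqle at chr15:59315077-59331192 on the plus strand. Their gene identifiers in the table matched this annotation: ENSMUSG00000059743 (Fdps), ENSMUSG00000001467 (Cyp51), ENSMUSG00000021273 (Fdft1), ENSMUSG00000058454 (Dhcr7), ENSMUSG00000033105 (Lss), ENSMUSG00000058258 (Idi1), ENSMUSG00000093930 (Hmgcs1), and ENSMUSG00000022351 (Sqle).

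Some of the 8 genes share sequence with other genes. Of the distinct stretches of 50 bases in the annotated transcripts of Fdps, 26.2% also occur in 8 other annotated genes, of which the protein-coding Gm43738 alone holds 23.4% and the rest are processed pseudogenes, and for Idi1 25.3% occur in 5 others. None of these other genes is listed in the table. For Fdft1 the share was 26.5%, the highest of the 8 genes, with 17.2% in Ctsb on the opposite strand and 9.38% in a processed pseudogene that is not listed in the table. The authors ran RSEM with default parameters, which do not use strand, so reads of Fdft1 and Ctsb over that stretch may not have been told apart. Ctsb was detected in 99.0% of cells at 337 TPM, and its correlation with Fdft1 between cells was -0.0200, compared with a median of 0.174 for Fdft1 with the other 7 genes. The corresponding shares were 11.6% for Hmgcs1 and below 3% for Sqle, Lss, Cyp51, and Dhcr7.

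The windows from 250 bases before to 50 after each transcription start (RefSeq, GRCm38.p6) were searched for known motifs on both strands. Of the 8 genes, 5 matched an entry (Cyp51, Dhcr7 with 3 starts, Hmgcs1, Idi1, and Lss), and Fdps, Fdft1, and Sqle did not. The sterol regulatory element written as TCACNCCAC was found in 1 of the 5 genes, Hmgcs1, compared with 1.44% of 27025 genes. Among the matched genes of other lists it was in 0 of 13 other synthesis enzymes and 0 of 10 regulators. It was in 1 of 10 uptake and handling genes and 1 of 16 genes of glycolysis and hypoxia. The CCAAT box was found in all 5 genes, compared with 41.1% of genes, and the E-box CACGTG in 1, Dhcr7, compared with 8.09%. The CCAAT box is not particular to the set. It was in 11 of 13 other synthesis enzymes, 11 of 13 S phase genes, and 12 of 14 G2/M genes. It was less common in the regulators (5 of 10) and the non-sterol isoprenoid branch (3 of 9). A match is a description of the letters and not evidence of binding. Distances are counted from the RefSeq starts. By the GENCODE positions given above, the windows shown for Idi1, Cyp51, and Dhcr7 lie inside the gene. The following short windows, 5′ to 3′ along the gene, show the element of Hmgcs1 and 1 CCAAT box of each gene, with the matched letters in capitals (ATTGG is CCAAT on the other strand).
Hmgcs1, chr13:119690204-119690232, plus strand, element starting 137 bases before the transcription start: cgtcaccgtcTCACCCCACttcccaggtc
Hmgcs1, chr13:119690296-119690320, plus strand, 45 bases before: cccgcctctcATTGGctgaaagcgg
Idi1, chr13:8885551-8885575, plus strand, 45 bases before: cctccagctgATTGGcgagcccggg
Lss, chr10:76531533-76531557, plus strand, 62 bases before: tgatgctctgATTGGccgagctcgc
Cyp51, chr5:4104712-4104736, minus strand, 29 bases before: ctgtccgccaCCAATctggtcctga
Dhcr7, chr7:143830155-143830179, plus strand, 49 bases before 1 of its starts: tccacttccgATTGGtcgtctgtga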

How the data were processed

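The TPM values of 25215 genes in 602 cells of 6 tumors are as deposited by the authors, who aligned reads with STAR in 2-pass mode and quantified TPM with RSEM (mm10 in the submitters' notes; versions and annotation are not given in the sources used here). Cells with more than 1000 genes detected and under 10% of TPM from mitochondrial genes were retained (507), and 11264 genes detected in more than 5 cells were tested. The read minimum of the study was not applied, because TPM holds no counts. Doublets were not called. Tumor means of log2(TPM + 1) were fitted with limma (3.58.1, R 4.3.3; eBayes with trend, two-sided, Benjamini-Hochberg, threshold 0.05). Everything else was run in Python (3.11.15), using scipy (1.17.1), numpy (2.4.6), pandas (2.3.3), and matplotlib (3.10.9). The 8 genes and the lists were chosen with earlier results of these data known. The rule for named genes took the 8, list genes past the threshold, the 3 most abundant of each list, the largest difference per contrast, and the 10 genes most alike, and allowed synthesis, regulation, and uptake genes in at least 10% of cells. Abca1, Abcg1, Ctsb, Gm43738, Idi2, and markers at 0 were named after their values were seen. Aldoa, with more than 1 entry, was left out. Results for some listed genes are not reported.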

Additional observations from a re-analysis of the deposited data

How the results depend on the processing

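None of the 8 genes passed the adjusted test (limma) in any contrast under any alternative run, and the lowest adjusted p was 0.329 (without trend). The alternatives on the filter of genes and the trend leave each difference as it was. Of the 24 differences, 16 reversed under at least 1 of the other alternatives that kept all tumors, and 19 when leaving out a tumor is included; the cause was not tested. In a self-test with simulated tumors, limma called 5 of 100 genes changed by 1 log2 unit and 68 of 100 changed by 2, so smaller differences would mostly be missed. No paired analysis was possible because the columns carry no replicate numbers of the labels. Reads per cell and the part of the number in the cell names are unknown. The alternatives for the genes most alike were chosen after seeing the data.

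With the number of genes detected as covariate, B16PD1 minus B16 was -0.11 for Idi1 and -0.21 for Fdft1. R499 minus B16 was then 0.23 for Hmgcs1, 0.0602 for Idi1, 0.25 for Lss, and 0.14 for Cyp51, and R499 minus B16PD1 was 0.51 for Hmgcs1, 0.17 for Idi1, 0.15 for Fdps, and 1.09 for Fdft1. With log2 of the mean TPM, B16PD1 minus B16 was -0.28 for Idi1 and -0.0448 for Sqle, R499 minus B16 was 0.17 for Lss, and R499 minus B16PD1 was 0.24 for Idi1 and 0.18 for Fdft1. With pseudocount 0.1 the values were 0.20 for Hmgcs1 (B16PD1 minus B16), -0.0333 for Dhcr7 (R499 minus B16), and -0.11 for Lss (R499 minus B16PD1). With pseudocount 10 they were 0.0176 for Lss (R499 minus B16) and 0.00824 for Fdft1 (R499 minus B16PD1). With all cells, Dhcr7 was 0.11 in B16PD1 minus B16, Fdft1 -0.0599 in R499 minus B16, and Lss -0.0454 in R499 minus B16PD1. In cells with more than 2000 genes, Dhcr7 was 0.0839 in B16PD1 minus B16, and Lss 0.0316 and Cyp51 0.12 in R499 minus B16. Centering the cells gave 0.0595 for Lss in R499 minus B16, and moved the median difference of all genes by 0.10 in R499 minus B16 and 0.14 in R499 minus B16PD1.

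Leaving out each tumor in turn, where a lone tumor is assumed to vary like the other groups, B16PD1 minus B16 ranged from -0.21 to 0.20 for Hmgcs1, -0.13 to 0.35 for Idi1, -0.32 to 0.25 for Fdps, -0.30 to 0.83 for Fdft1, -0.47 to 0.31 for Lss, and -0.66 to 0.42 for Dhcr7. R499 minus B16 ranged from -0.80 to 0.34 for Hmgcs1, -0.54 to 0.75 for Fdft1, -0.27 to 0.18 for Lss, and -0.16 to 0.35 for Dhcr7. R499 minus B16PD1 ranged from -0.79 to 0.34 for Hmgcs1, -0.80 to 0.48 for Fdft1, -0.35 to 0.43 for Lss, and -0.32 to 0.76 for Dhcr7.

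The count of all genes called by limma in R499 minus B16 and in R499 minus B16PD1 was 11 and 13 with pseudocount 0.1, 3 and 3 with pseudocount 10, 20 and 14 for genes in at least 10% of cells, 22 and 16 with all cells, 20 and 14 in cells with more than 2000 genes, and 28 and 22 with centered cells. It was 0 and 0 with log2 of the mean TPM (882 and 738 at an unadjusted p under 0.05), no filter on genes (1295 and 1229), the covariate (778 and 604), and without trend (1304 and 1246). Leaving out a tumor gave 0 to 2 genes in B16PD1 minus B16 (2 without B16007), 0 to 10 in R499 minus B16 (0 without B16008, with 1018 at an unadjusted p under 0.05, and 4 without R499015), and 3 to 8 in R499 minus B16PD1 (3 without B16PD1000 and 3 without R499015). The share of cells was 72.8% for Hmgcs1, 34.7% for Lss, and 83.2% for Cyp51 at a TPM of at least 10. In cells with more than 2000 genes it was 82.8% for Hmgcs1, 99.8% for Fdps, 93.5% for Sqle, 92.4% for Cyp51, and 85.3% for Dhcr7, and with all cells it was 95.7% for Fdps. Of the 10 genes most alike, 5 stayed among the 10 when the number of genes detected was not regressed out, and 6 to 9 when a tumor was left out.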
